A study of Homo sapiens with 20 samples.

Results

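The 39 genes described here carry the response to low oxygen and the breakdown of glucose to lactate, and they were taken by symbol from the 44294 genes with values in a table of 20 xenograft tumor libraries. Every one of the 39 was found, none was at 0 in any library, and all passed the filter on low values in each comparison. They are the oxygen-regulated factors HIF1A and EPAS1, the prolyl hydroxylases EGLN1 and EGLN3, the target and stress genes from VEGFA to PDK1, the glucose transporters SLC2A1 and SLC2A3, the glycolytic enzymes and their regulators PFKFB3 and PFKFB4, and the lactate exporter SLC16A3. The tumors grew from RD or SJRH30 cells, human rhabdomyosarcoma lines, in NOD/SCID mice. The controls were the non-targeting control cells and the others had TLE3, a gene for a Groucho-family corepressor, knocked out, with 5 libraries in each of the 4 groups. All tumors were taken when the controls had grown to the largest size permitted, and they were flash frozen. RD is a fusion-negative line and SJRH30 carries the PAX3-FOXO1 fusion, and the sources used here do not give the guide, the number of clones or the age of the mice. Nor is it given whether tumors of 1 group grew in different animals, and p-values then reflect only the spread among the 5 libraries, which may be technical.

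HIF1A and EPAS1 code for the oxygen-sensitive subunits of the hypoxia-inducible factors. In well oxygenated cells the EGLN prolyl hydroxylases mark these subunits for destruction through VHL, and when oxygen falls they persist, pair with ARNT and bind short DNA elements at genes for blood vessel growth, pH control, mitochondrial turnover and glycolysis. Control of HIF1A is mostly through the stability of its protein, which RNA does not measure. Skeletal muscle and its tumors use glycolysis heavily, and several of its steps are run by paralogous enzymes of which one is typical of muscle, such as PFKM for phosphofructokinase.

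Promoter sequences from RefSeq (build GRCh38.p14) were matched for 35 of the 39 genes, and BNIP3L, VEGFA, NDRG1 and SLC2A3 were not matched. The core of the hypoxia response element was sought as ACGTG and GCGTG on both strands, so that CACGT and CACGC also count and CACGTG, which reads alike on both strands, is 1 site. Of the 35 promoters, read over the 250 bases before the annotated start, 23 (65.7%) held a match, against 43.1% of all 27305 promoters and 51.8% of 14634 promoters of protein-coding genes in the count table. Promoters with 2 or more matches were 25.7%, 19.5% and 24.9% of these sets. For these shares CACGTG was counted once on each strand, so that GAPDH, with only 1 CACGTG site, is among them. The 4 sequences below are examples that hold matches, from genes whose RNA differed between the lines. Capitals mark the matches, written 5′ to 3′ on the strand of the gene.
CA9, chr9:35673678-35673927, plus strand: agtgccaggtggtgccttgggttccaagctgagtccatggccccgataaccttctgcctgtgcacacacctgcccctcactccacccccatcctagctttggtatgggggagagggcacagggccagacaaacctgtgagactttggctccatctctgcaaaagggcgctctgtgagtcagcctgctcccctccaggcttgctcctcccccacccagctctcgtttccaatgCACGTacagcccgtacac
HK2, chr2:74833877-74834126, plus strand: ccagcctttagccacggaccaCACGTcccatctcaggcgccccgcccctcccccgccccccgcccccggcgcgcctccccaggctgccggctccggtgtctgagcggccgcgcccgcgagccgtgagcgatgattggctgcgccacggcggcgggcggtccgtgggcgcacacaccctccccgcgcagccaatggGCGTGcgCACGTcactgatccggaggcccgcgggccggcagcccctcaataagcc
BNIP3, chr10:131981924-131982173, minus strand: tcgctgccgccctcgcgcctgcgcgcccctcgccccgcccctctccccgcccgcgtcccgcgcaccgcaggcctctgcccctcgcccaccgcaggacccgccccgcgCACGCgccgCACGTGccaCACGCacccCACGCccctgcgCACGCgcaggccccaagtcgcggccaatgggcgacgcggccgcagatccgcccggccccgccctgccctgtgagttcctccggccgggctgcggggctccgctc
LDHA, chr11:18394313-18394562, plus strand: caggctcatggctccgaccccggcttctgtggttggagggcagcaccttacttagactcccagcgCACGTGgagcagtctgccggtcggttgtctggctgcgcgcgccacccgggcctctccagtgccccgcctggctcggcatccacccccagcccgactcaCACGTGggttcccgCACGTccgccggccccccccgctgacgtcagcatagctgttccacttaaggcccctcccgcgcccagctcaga

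CA9 has 1 such site close to its start, HK2 has 3, BNIP3 has 5 packed into a short stretch and LDHA has 3, of which 2 are CACGTG. EGLN3, PDK1, SLC2A1, PFKP, PGAM1 and SLC16A3, which were also higher in SJRH30 controls, held no match in this window. P4HA2, TPI1, PKM and LDHB, called higher only between knockouts with all libraries, held none either. For PFKP and GAPDH no GENCODE 29 transcript of the gene held the 30 bases sought just after the start, so their windows may not lie at the start used. A match describes letters in the DNA and does not show binding.

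The deposited values were normalized counts scaled by the authors, and they summed to between 23.3 M and 60.7 M per library. In 2 libraries low values came in whole steps of 1 read, which gave 9.65 M reads in RD knockout 5 and 2.14 M in SJRH30 control 3, and 1 read was worth 4.935 and 10.895 normalized counts there. Mitochondrially encoded transcripts made up 32.4% and 20.4% of these shallow libraries, 16.9% of SJRH30 knockout 4 and 2.34% to 8.69% of the rest. Results are given with all 20 libraries and without the 2 shallow ones. TLE3 itself had 1345, 1810, 2622, 1270 and 1809 normalized counts in the RD controls and 1465, 1357, 1032, 1547 and 424 in the RD knockouts. SJRH30 controls held 426, 638, 185, 597 and 407 for TLE3, against 967, 806, 582, 637 and 809 among SJRH30 knockouts. The groups overlapped in both lines, the knockout median was lower than the control median in RD and higher in SJRH30, and the RNA level therefore does not check the knockout labels. Muscle-lineage markers such as MYOD1 and DES, summed over 6 genes, ranged from 6351 to 127335 normalized counts over the 20 libraries, so muscle-lineage RNA was present in each. Counts fell on human genes only, and whether reads of the mouse host were removed is not given in the sources used here. The host was a mouse, so the endothelial, macrophage and erythroid markers used below do not measure host cells directly. In bulk tumors a lower level can mean fewer cells of a type or less RNA per cell, and these cannot be told apart.

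**Figure D1:**
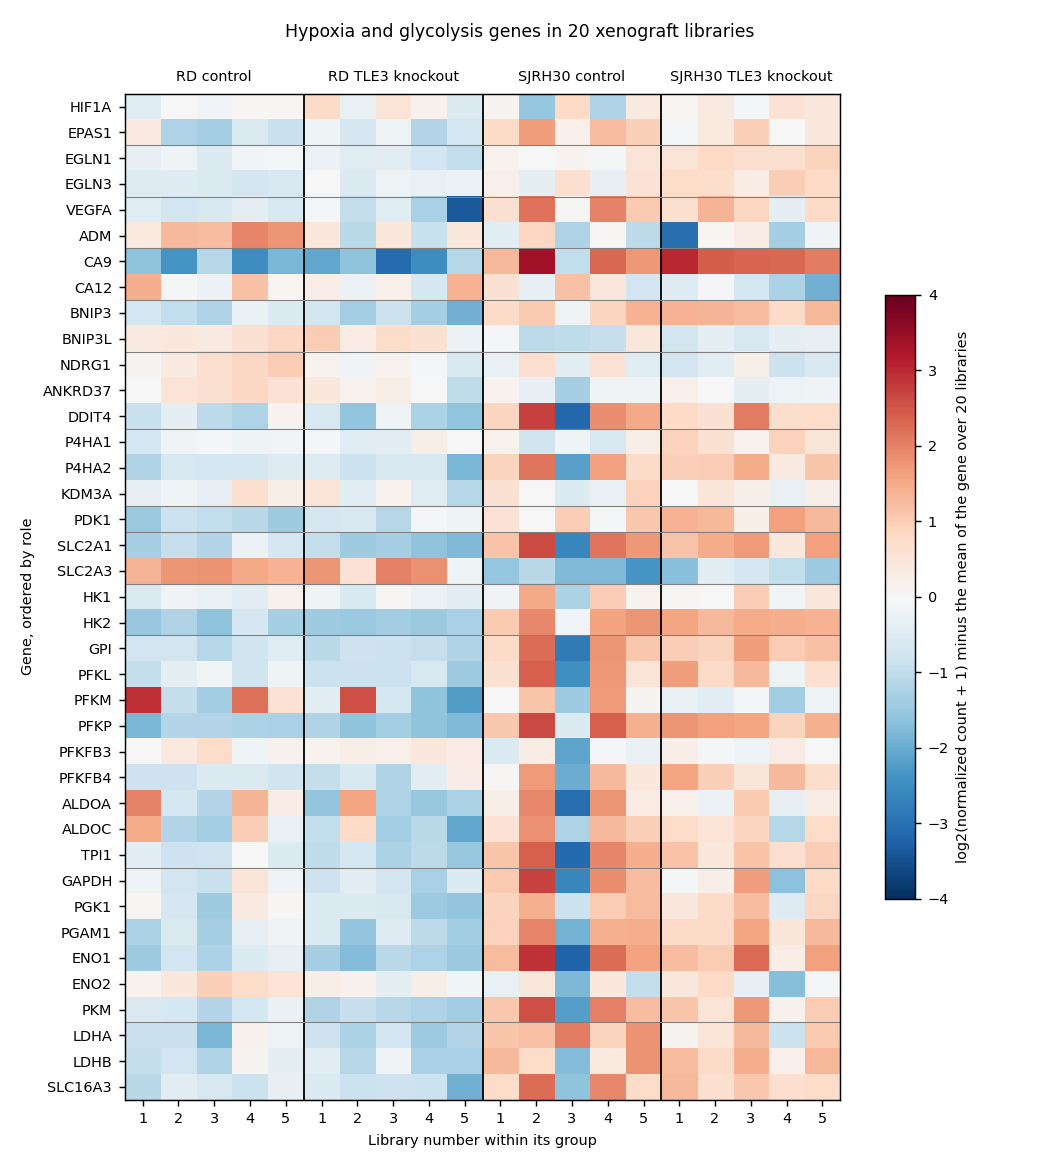
Each row is 1 of the 39 genes, ordered by role with grey lines between roles, and each column is 1 library. Color shows log2(normalized count + 1) minus the mean of the gene over 20 libraries. Most glycolysis rows are red in SJRH30 and blue in RD, SJRH30 control 3 is blue for most enzymes but red for LDHA, and PFKM and ALDOA are red in RD control 1, RD control 4 and RD knockout 2.

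The largest differences among these genes lay between the 2 lines. In the control tumors 12 of 39 genes were higher in SJRH30 than in RD and 3 were lower, which is 38.5% called against 18.7% of the 44294 genes tested (limma on log2(normalized count + 1), adjusted p below 0.05). By direction the share over all genes was 6.23% higher and 12.5% lower. Without the shallow libraries 24 were higher and 4 lower (71.8%), against 40.4% of all genes, where 18.1% were higher and 22.4% lower. In the knockout tumors 22 were higher in SJRH30 and 2 lower (61.5%), against 16.9% of all genes, where 8.01% were higher and 8.94% lower. Without the shallow libraries the knockouts gave 24 higher and 2 lower (66.7%), against 26.8% of all genes, where 12.6% were higher and 14.2% lower. The authors' deposited tables call 24 higher and 4 lower between controls, and 25 higher and 2 lower between knockouts. Under quantile normalization, which sets the whole-table calls at 3968 higher and 3779 lower in place of 2758 and 5531 between controls, 10 of the 39 were higher and 3 lower. The median log2 difference over the 39 genes was 1.08 between controls, where the median of all genes was -0.45, and 1.51 between knockouts, where it was -0.08. Over the 39 genes it was 0.65 and 1.01 under quantile normalization, and 1.58 and 1.35 without the shallow libraries. Both comparisons share no library, but they compare the same pair of lines. Their tests also come from 1 fit of all 20 libraries with a shared spread, so they are not independent. The proliferation markers, 6 genes such as MKI67 and TOP2A, gave sums of 22431 to 43051 in SJRH30 controls and 9444 to 18597 in RD controls. In the knockouts they gave 29168 to 42045 in SJRH30 and 5449 to 15308 in RD, also without overlap. Taken 1 by 1 between controls, all 6 had a higher median in SJRH30, but only BUB1 was apart and the other 5 overlapped. Sums of the muscle-lineage markers overlapped between controls but not between knockouts, at 48163 to 67995 in SJRH30 and 18249 to 39068 in RD. Of these genes only MYOD1 (10092 to 25776 against 1467 to 2820) and CDH15 (15103 to 25687 against 2773 to 5022) were apart between knockouts. MYOG, DES, CHRNA1 and MYF5 overlapped, and the SJRH30 median was higher for DES but lower for MYOG, CHRNA1 and MYF5. The part of these markers in the differences was not tested.

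Of the oxygen-regulated factors, EPAS1 differed between the controls and HIF1A did not pass the test. HIF1A had 1447, 2079, 1893, 2123 and 2136 normalized counts in RD controls 1 to 5 and 3448, 1644, 2948, 2313 and 1392 in RD knockouts. HIF1A counts in SJRH30 were 2188, 694, 3508, 868 and 2628 in controls and 2164, 2638, 1944, 3038 and 2721 in knockouts. The groups overlapped, and the log2 difference between the lines was -0.22 ± 0.38 (standard error) in controls (adjusted p = 0.718) and 0.15 ± 0.38 in knockouts (adjusted p = 0.827). EPAS1, which codes for HIF-2alpha, had 533, 175, 165, 276 and 223 in RD controls and 367, 260, 357, 181 and 252 in RD knockouts. EPAS1 in SJRH30 was at 710, 1313, 479, 981 and 808 in controls and 396, 548, 796, 420 and 557 in knockouts. It was higher in SJRH30 controls by 1.70 ± 0.34 on the log2 scale (adjusted p = 0.00108), with RD control 1 reaching into the SJRH30 range. The difference between knockouts was 0.94 ± 0.34 (adjusted p = 0.0646) and passed only without the shallow libraries (adjusted p = 0.0374). The gene RP11-618G20.1 shares 148 exon bases with HIF1A and had a mean of 91.1% of the HIF1A value, and the counts cannot show how reads of such pairs were divided.

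The prolyl hydroxylase genes, whose products sense oxygen and which HIF itself can induce, were higher in SJRH30 except for EGLN1 between controls. EGLN3 was higher in both comparisons, by 0.75 ± 0.26 between controls (adjusted p = 0.0423) and 0.96 ± 0.26 between knockouts (adjusted p = 0.0107), and the groups did not overlap. EGLN1 was higher between knockouts (1.28 ± 0.23, adjusted p = 0.000294) and did not pass between controls (0.39, adjusted p = 0.236).

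Among target genes, the carbonic anhydrase gene CA9 showed the widest gap. CA9 codes for a membrane enzyme that helps regulate acidity and is widely used as a tissue marker of hypoxia. CA9 had 21, 12, 30, 11 and 18 normalized counts in RD controls and 15, 21, 7, 11 and 30 in RD knockouts. CA9 in SJRH30 had 167, 697, 33, 329 and 226 in controls and 552, 364, 341, 329 and 281 in knockouts. Every SJRH30 library lay above every RD library, the lowest being the shallow SJRH30 control 3, whose 33 normalized counts amount to 3 reads. The log2 difference was 3.43 ± 0.58 between controls (adjusted p = 0.000176) and 4.51 ± 0.58 between knockouts (adjusted p = 5.51e-06). CA9 shares 643 exon bases with ARHGEF39 on the opposite strand, whose mean was larger than that of CA9, and the ratio of CA9 to ARHGEF39 was 0.0142 to 0.0997 in RD and 0.121 to 1.11 in SJRH30. The paralogue CA12 did not pass in either comparison (-0.24 and -1.09, adjusted p = 0.776 and 0.167).

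The secreted factors differed in opposite directions between the controls. VEGFA, the main growth factor for blood vessels, had 405, 336, 363, 438 and 367 in RD controls and 536, 294, 404, 232 and 54 in RD knockouts. VEGFA in SJRH30 stood at 879, 2578, 588, 2261 and 1173 in controls and 888, 1462, 1014, 441 and 976 in knockouts. All 5 SJRH30 controls were above all 5 RD controls, and VEGFA was higher by 1.76 ± 0.49 (adjusted p = 0.0149). Between knockouts the difference was 1.89 ± 0.49 (adjusted p = 0.0093), with SJRH30 knockout 4 inside the RD range. Endothelial markers, 10 genes such as PECAM1, summed to 805 to 1678 in SJRH30 controls and 1978 to 3756 in RD controls, but 2 genes carried that gap. PECAM1 (109 to 178 against 536 to 959) and EGFL7 (85 to 371 against 491 to 981) were lower in every SJRH30 control, the other 8 overlapped, and those 8 summed to 598 to 1373 in SJRH30 controls and 510 to 2227 in RD controls. ADM, which codes for the vasodilator peptide adrenomedullin, had 105, 197, 189, 309 and 274 in RD controls and 58, 143, 33, 83 and 38 in SJRH30 controls, with some overlap, and it was lower in SJRH30 (-1.70 ± 0.57, adjusted p = 0.0421). The knockouts had 109, 37, 108, 43 and 109 in RD and 9, 85, 98, 31 and 72 in SJRH30, overlapping, and the difference was -0.69 ± 0.57 (adjusted p = 0.447).

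**Figure D2:**
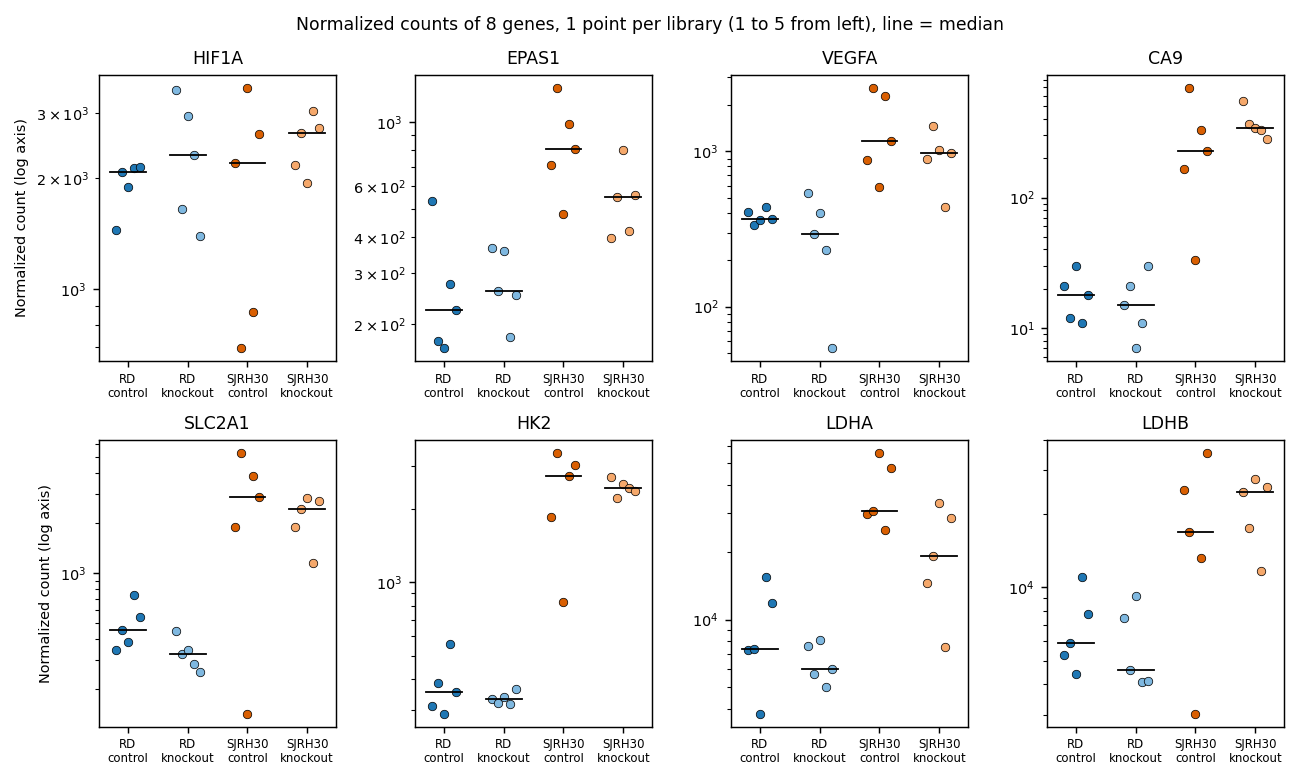
Normalized counts of 8 genes on log axes, 1 point per library in library order within each group, with a line at the median of the group. CA9 and HK2 separate SJRH30 from RD in every library, HIF1A overlaps throughout, and SJRH30 control 3 is the lowest SJRH30 point for SLC2A1, HK2 and LDHB but the highest for LDHA.

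The 2 mitophagy receptor genes, whose products mark mitochondria for removal, also split. BNIP3 had 825, 682, 569, 1111 and 901 in RD controls and 817, 528, 741, 540 and 355 in RD knockouts. BNIP3 in SJRH30 was 2296, 2797, 1166, 2457 and 3523 in controls and 3527, 3454, 3180, 2277 and 3416 in knockouts, above every RD library. It was higher by 1.53 ± 0.31 between controls (adjusted p = 0.000954) and by 2.45 ± 0.31 between knockouts (adjusted p = 3.40e-06). Its 21 pseudogenes summed to 26.3% of the BNIP3 value, so reads could be split between copies. BNIP3L was lower in SJRH30, by -1.04 ± 0.30 between controls (adjusted p = 0.019) and -0.97 ± 0.30 between knockouts (adjusted p = 0.0294).

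PDK1, whose kinase inhibits pyruvate dehydrogenase, was higher in SJRH30. PDK1 had 357, 551, 506, 460 and 373 in RD controls and 1490, 995, 1983, 955 and 2112 in SJRH30 controls, which do not overlap. RD knockouts had 628, 634, 445, 945 and 878 and SJRH30 knockouts 2605, 2477, 1172, 3107 and 2456, again apart. The log2 difference was 1.69 ± 0.31 (adjusted p = 0.000455) and 1.72 ± 0.31 (adjusted p = 0.000353). DDIT4, a stress gene that restrains mTOR, had 468, 689, 426, 371 and 941 in RD controls and 557, 292, 756, 361 and 291 in RD knockouts. DDIT4 and PDK1 share exon bases with opposite-strand genes at 73.7% and 61.6% of their values. DDIT4 in SJRH30 was 1585, 5843, 98, 3220 and 2508 in controls and 1524, 1346, 3644, 1441 and 1466 in knockouts. It was higher between knockouts (2.05 ± 0.70, adjusted p = 0.0457), while between controls the value of 98 in the shallow SJRH30 control 3 lay below every RD control and the difference passed only without the shallow libraries (2.43 ± 0.37, adjusted p = 1.26e-05). P4HA2, a collagen prolyl hydroxylase gene, was higher between knockouts by 1.88 ± 0.53 (adjusted p = 0.0156) and between controls only without the shallow libraries (2.11 ± 0.27, adjusted p = 1.37e-06). NDRG1, P4HA1 and the histone demethylase gene KDM3A passed in neither comparison with all libraries, and neither did ANKRD37, whose 909 shared exon bases with UFSP2 on the opposite strand make its value uncertain. Without the shallow libraries P4HA1 passed between knockouts (adjusted p = 0.0227) and ANKRD37, lower in SJRH30, between controls (adjusted p = 0.0318).

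The glucose transporter genes differed in opposite directions. SLC2A1, which codes for the widely expressed transporter GLUT1, had 341, 451, 382, 732 and 543 in RD controls and 445, 323, 342, 283 and 252 in RD knockouts. SLC2A1 in SJRH30 was 1895, 5312, 142, 3856 and 2896 in controls and 1894, 2434, 2846, 1150 and 2705 in knockouts. Apart from SJRH30 control 3, with 142, every SJRH30 library exceeded every RD library, and the difference was 1.88 ± 0.62 between controls (adjusted p = 0.038) and 2.698 ± 0.624 between knockouts (adjusted p = 0.00364). SLC2A3, the GLUT3 gene, had 104, 140, 142, 116 and 106 in RD controls and 139, 61, 166, 145 and 35 in RD knockouts. SLC2A3 in SJRH30 had 13, 18, 11, 11 and 7 in controls and 12, 29, 25, 20 and 14 in knockouts, below every RD library. It was lower by -3.28 ± 0.45 (adjusted p = 1.46e-05) and -2.24 ± 0.45 (adjusted p = 0.00108). The 3 pseudogenes of SLC2A3 summed to 41.3% of it, and SLC2A14 is a near-identical neighbour, so its level is uncertain.

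HK2, the hexokinase that traps glucose at the start of glycolysis and is typical of muscle and many tumors, gave the smallest adjusted p between the lines. HK2 had 310, 386, 290, 559 and 355 in RD controls and 334, 321, 339, 316 and 365 in RD knockouts. HK2 in SJRH30 had 1857, 3387, 828, 2717 and 3017 in controls and 2686, 2213, 2526, 2438 and 2359 in knockouts. No SJRH30 library overlapped any RD library, and the difference was 2.52 ± 0.31 between controls (adjusted p = 3.22e-06) and 2.86 ± 0.31 between knockouts (adjusted p = 5.29e-07). HK1, the constitutive hexokinase, did not pass with all libraries (0.50 and 0.55, adjusted p = 0.371 and 0.346).

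Of the 9 upper glycolysis genes, PFKP was higher between controls and 5 were higher between knockouts. PFKP, the platelet form of phosphofructokinase, had 284, 442, 443, 419 and 405 in RD controls and 433, 327, 387, 325 and 296 in RD knockouts. PFKP in SJRH30 had 2107, 6219, 686, 5196 and 2704 in controls and 3422, 3130, 2976, 1866 and 2672 in knockouts, above all RD libraries. It was higher by 2.74 ± 0.41 (adjusted p = 3.89e-05) and 2.97 ± 0.41 (adjusted p = 1.26e-05). GPI, which converts glucose 6-phosphate to fructose 6-phosphate, had 3127, 3143, 2357, 3015 and 3728 in RD controls and 2502, 2929, 2898, 2787 and 2280 in RD knockouts. GPI in SJRH30 had 9004, 24514, 741, 17781 and 11146 in controls and 10461, 9754, 16581, 10697 and 11770 in knockouts. It was higher between knockouts by 2.12 ± 0.58 (adjusted p = 0.0134), and between controls, where control 3 at 741 lay below all RD libraries, only without the shallow libraries (2.25 ± 0.26, adjusted p = 3.21e-07). PFKL (1.78 ± 0.58, adjusted p = 0.0369), PFKFB4 (1.59 ± 0.47, adjusted p = 0.0224) and TPI1 (1.99 ± 0.65, adjusted p = 0.0386) were the others higher between knockouts. Between controls PFKL, PFKFB4 and TPI1 did not pass with all libraries. Without the shallow libraries every SJRH30 control lay above every RD control for them, and the authors' deposited table calls them higher. PFKM, PFKFB3, ALDOA and ALDOC passed in neither comparison, with or without the shallow libraries. GPI and PFKP each share exon bases with another gene on the same strand, at 78.2% and 78.7% of their values.

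Of the 6 lower glycolysis genes, PGAM1 was higher between controls and 4 were higher between knockouts. ENO1, the general enolase, had 9608, 15153, 10691, 17928 and 20870 in RD controls and 10274, 7840, 12225, 11106 and 9194 in RD knockouts. ENO1 in SJRH30 was 62701, 192777, 2832, 121371 and 79431 in controls and 60874, 52695, 125251, 31207 and 81292 in knockouts. The knockouts did not overlap (2.66 ± 0.74, adjusted p = 0.0145), and the controls differed by 1.83 ± 0.74 (adjusted p = 0.0875), or 2.87 ± 0.38 without control 3 (adjusted p = 1.85e-06). PKM, which makes pyruvate, had 9793, 8839, 6482, 8979 and 12023 in RD controls and 6257, 7693, 6657, 6198 and 5527 in RD knockouts. PKM in SJRH30 was 30756, 86636, 3116, 58668 and 34290 in controls and 31165, 21067, 47912, 16291 and 29242 in knockouts, above RD but for control 3. It differed by 2.08 ± 0.59 between knockouts (adjusted p = 0.0156) and by 1.62 ± 0.59 between controls (adjusted p = 0.0565, or 2.41e-06 without control 3). PGAM1 was higher in both (1.499 ± 0.510 and 2.00 ± 0.51, adjusted p = 0.0432 and 0.008), and PGK1 in the knockouts (1.51 ± 0.44, adjusted p = 0.0196). Between controls PGK1 did not pass with all libraries. Without the shallow libraries its SJRH30 controls all lay above the RD controls, and the authors' deposited table calls it higher. GAPDH, often used as a reference gene, spread over 39.6-fold within the SJRH30 controls (6624 to 262446) and 9.94-fold within the SJRH30 knockouts (13095 to 130199), and passed only between controls without the shallow libraries (2.00 ± 0.48, adjusted p = 0.0019). It has 50 pseudogenes, summing to 9.16% of its value, and shares 422 exon bases with RP5-940J5.9 on the opposite strand, at 63.5% of its value. ENO2, the neuronal enolase, passed in neither comparison.

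Of the lactate genes, LDHA and SLC16A3 were higher between controls and all 3 between knockouts. LDHA, the lactate dehydrogenase subunit that favors lactate, had 7334, 7364, 3803, 15444 and 11808 in RD controls and 7595, 5706, 8080, 5006 and 6011 in RD knockouts. LDHA in SJRH30 was 29613, 30512, 55679, 25191 and 47466 in controls and 14538, 19281, 33221, 7522 and 28379 in knockouts. The controls did not overlap (2.13 ± 0.42, adjusted p = 0.000869), whereas SJRH30 knockout 4 lay inside the RD range (1.51 ± 0.42, adjusted p = 0.0144). LDHB, the subunit that favors pyruvate, had 5262, 5900, 4406, 10975 and 7783 in RD controls and 7463, 4582, 9189, 4083 and 4141 in RD knockouts. LDHB in SJRH30 was 24972, 16758, 3039, 13139 and 35411 in controls and 24379, 17390, 27726, 11645 and 25608 in knockouts. It was higher between knockouts (1.87 ± 0.49, adjusted p = 0.0101), and between controls only without the shallow libraries (1.69 ± 0.34, adjusted p = 0.000392). SLC16A3, the lactate exporter MCT4, was called higher in both comparisons (1.49 and 1.89, adjusted p = 0.0354 and 0.00805). Its ratio to CSNK1D, which shares 482 exon bases with it on the opposite strand, was 0.858 to 1.14 in all 20 libraries, so the 2 genes cannot be told apart here.

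**Figure D3:**
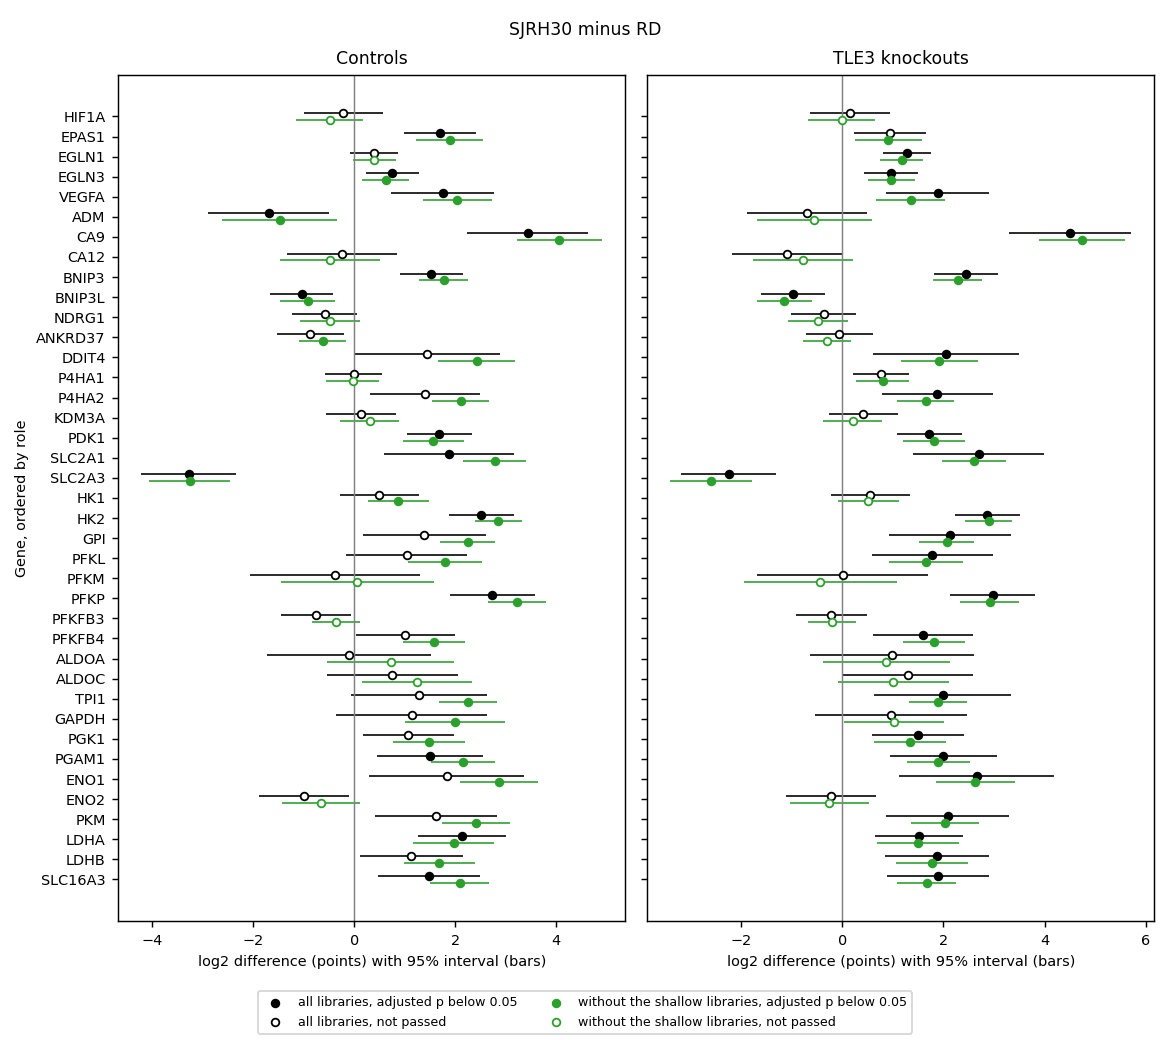
Log2 difference of SJRH30 minus RD for the 39 genes, between controls (left) and between TLE3 knockouts (right), with 95% intervals. Black is all libraries and green leaves out the shallow ones, and filled points have adjusted p below 0.05. With all libraries CA9, PFKP and HK2 lie farthest to the right in both panels, while among controls without the shallow ones ENO1 (2.87) lies just beyond HK2. SLC2A3 lies farthest to the left in both fits.

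Counted by separation, 8 of the 39 genes had all 5 SJRH30 controls above all 5 RD controls, against 4.19% of all genes. SLC2A3 alone had all of them below, against 8.93% of all genes. Without the shallow libraries these counts were 23 (14.4% of all genes) and 1 (15.4%). Between the knockouts 21 genes were fully above (9.94%) and 2, BNIP3L and SLC2A3, fully below (8.97%).

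Ratios of paralogues within a library, each gene scaled per exon length, do not depend on the scaling between libraries. The ratio of HK2 to HK1 was 0.232 to 0.552 in RD controls, 0.244 to 0.362 in RD knockouts, 0.880 to 2.01 in SJRH30 controls and 0.944 to 1.94 in SJRH30 knockouts, so the lines did not overlap. PFKP to PFKM was 0.0338 to 1.05 and 0.0494 to 1.24 in RD controls and knockouts, and 1.44 to 2.60 and 2.75 to 4.38 in SJRH30. SLC2A1 to SLC2A3 had medians of 4.27 and 4.17 in RD and 385 and 148 in SJRH30, the lowest SJRH30 ratio being 16.8 in control 3. ENO1 to ENO2 had medians of 28.8 and 25.2 in RD and 244 and 224 in SJRH30, with 26.4 in control 3 inside the RD range. HIF1A to EPAS1 had a median of 13.6 in RD controls and 4.37 in SJRH30 controls, with overlap. LDHA to LDHB was 0.286 to 0.921 in 19 libraries and 8.80 in SJRH30 control 3. Per exon length GAPDH had the highest level of the 39 in all 4 groups, and CA12 or SLC2A3 the lowest.

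TLE3 knockout gave no call among the 39 genes in RD. In RD 0 of 39 passed against 0.142% of 42917 genes tested with limma. ADM, NDRG1, PDK1, TPI1, ENO2 and PKM, 6 of 39, had an unadjusted p below 0.05, against 8.42% of all genes. None had all knockouts above or all below the controls, against 0.62% and 1.31% of all genes. The authors' deposited table also calls 0 of them. The median log2 difference was -0.33, against -0.09 over all genes, and 7 of 39 values were above 0. ADM had the smallest p, at -1.45 ± 0.41 (adjusted p = 0.287), and its values, listed above, overlapped only in that RD knockouts 1, 3 and 5 were just above RD control 1. NDRG1, a hypoxia and differentiation gene, had 335, 394, 478, 550 and 623 in controls and 338, 279, 339, 291 and 202 in knockouts, a difference of -0.70 ± 0.25 (adjusted p = 0.43). TPI1, the triose phosphate isomerase gene, had 8668, 6532, 6668, 11545 and 7859 in controls and 5722, 7049, 4777, 5570 and 4067 in knockouts, with overlapping groups (-0.59 ± 0.24, adjusted p = 0.519). PDK1 was the only one of these 6 with a positive value (0.62 ± 0.25, adjusted p = 0.519). ENO2 had 334, 407, 586, 505 and 441 in controls and 367, 340, 236, 358 and 281 in knockouts (-0.52 ± 0.23, adjusted p = 0.575). The RD groups of NDRG1, PDK1 and ENO2 overlapped too. For 19 of the 39 genes the 95% interval lay within 1 log2 unit on both sides of 0. Without RD knockout 5 the count of calls was again 0 (0.332% of all genes) and ADM had an adjusted p of 0.137. Macrophage markers, 13 genes including CD68, summed to 5236 to 11742 in RD controls and 2976 to 4830 in RD knockouts, without overlap. Taken 1 by 1, CD14, CD68, C1QA, C1QB, TYROBP and FCER1G were lower in every knockout than in any control. CD163, CSF1R, C1QC, AIF1, LYZ, MRC1 and ADGRE1 overlapped, each with a lower median in the knockouts. The part of these markers in the values of the 39 genes was not tested.

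In SJRH30 the knockout again gave 0 calls of 39, against 0.00999% of 40028 genes. P4HA1 alone had an unadjusted p below 0.05, against 8.59% of all genes, and none had all knockouts above or all below the controls, against 1.57% and 0.71%. P4HA1, a collagen prolyl hydroxylase gene, had 2022, 1041, 1601, 1176 and 2145 in controls and 3431, 2756, 2025, 3485 and 2567 in knockouts, overlapping at knockout 3 (0.87 ± 0.32, adjusted p = 0.509). In the authors' deposited table P4HA1 is the only one of the 39 called in this comparison, with a log2 fold change of 0.82 and an adjusted p of 0.0467. EGLN1 had 864, 781, 839, 750 and 1115 in controls and 1115, 1360, 1205, 1213 and 1444 in knockouts, touching at 1115 (0.55 ± 0.27, adjusted p = 0.598). CA12 had 51, 26, 76, 46 and 19 in controls and 23, 31, 20, 13 and 8 in knockouts, overlapping (-1.13 ± 0.56, adjusted p = 0.608). LDHA, with the values above, differed by -0.98 ± 0.52 (adjusted p = 0.636) and EPAS1 by -0.63 ± 0.34 (adjusted p = 0.653). Only 2 genes had a 95% interval within 1 log2 unit of 0, so this comparison is imprecise. Without control 3 the count stayed 0 (0.486% of all genes), while 11 genes had an unadjusted p below 0.05 (19.6% of all genes) and the median over the 39 turned from 0.21 to -0.42, with 11 of 39 above 0. The smallest p was then that of PFKM (-1.20 ± 0.37, adjusted p = 0.121), whose 4 remaining controls were all above the 5 knockouts, the only gene of the 39 so separated against 2.81% of all genes. The sum of 9 muscle contractile genes was 14765 to 92096 in SJRH30 controls and 5034 to 14486 in SJRH30 knockouts, likewise without overlap. Taken 1 by 1, only TTN was apart, at 6699 to 13912 in controls and 2389 to 5387 in knockouts. MYH3, MYH8, ACTC1, ACTA1, TNNT2, TNNI1, CKM and MYLPF overlapped, each with a lower median in the knockouts. The part of these genes in the PFKM value was not tested.

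**Figure D4:**
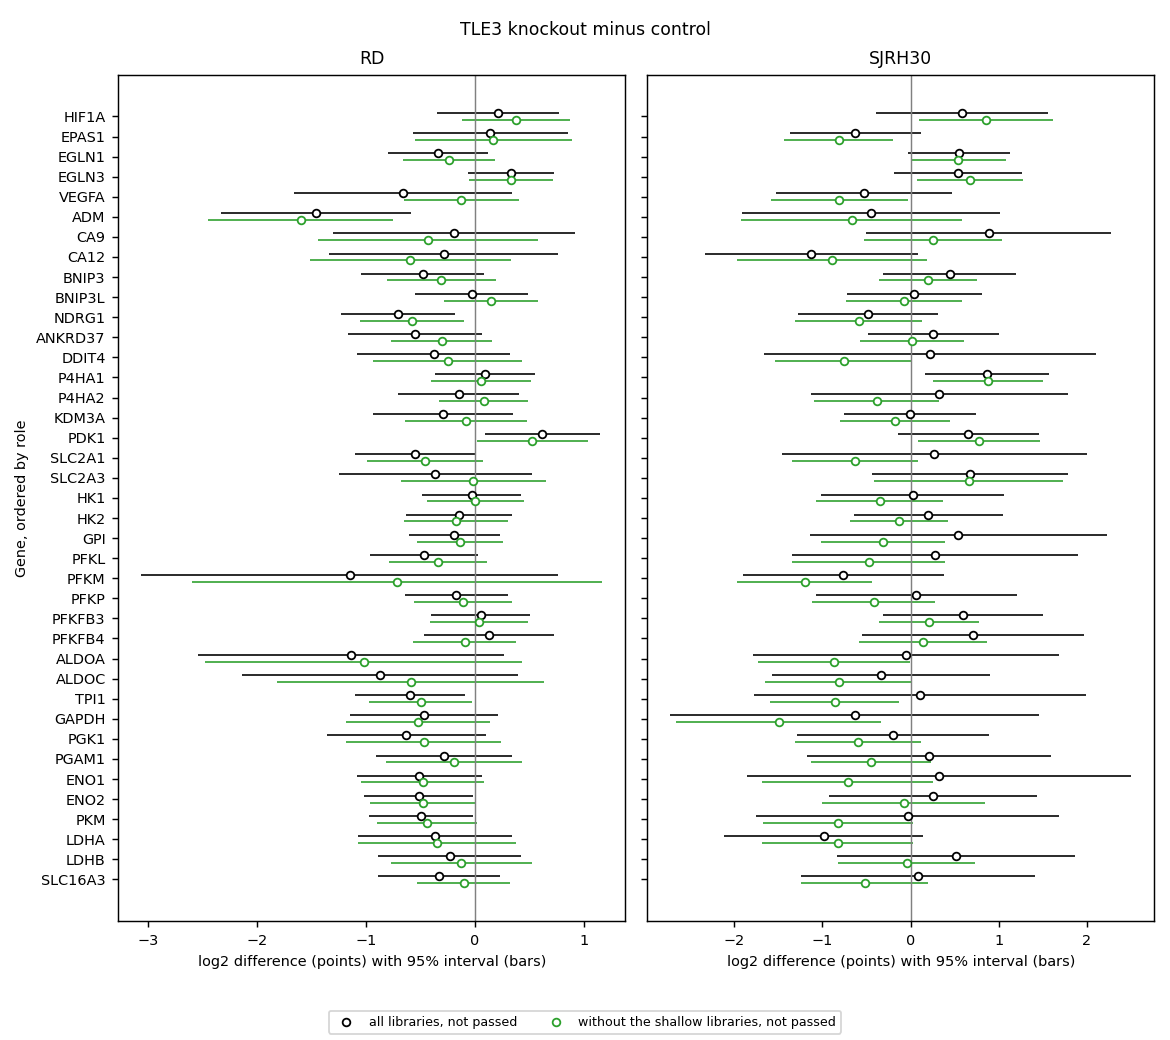
Log2 difference of TLE3 knockout minus control for the 39 genes in RD (left) and SJRH30 (right), with 95% intervals, from all libraries (black) and without the shallow ones (green). All points are open because no adjusted p is below 0.05. Most RD points lie left of 0, and in SJRH30 most glycolysis points move from around 0 to the left of it when the shallow control 3 is left out.

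The difference of the knockout effects between the lines also gave 0 calls of 39 (0.00903% of all genes), and 2 genes, EGLN1 and BNIP3, had an unadjusted p below 0.05 against 6.01%. EGLN1 had 618, 689, 528, 720 and 754 in RD controls and 657, 559, 577, 456 and 395 in RD knockouts, and the difference of effects was 0.89 ± 0.32 (adjusted p = 0.714). BNIP3 differed by 0.92 ± 0.43 (adjusted p = 0.823). P4HA1, with 1113, 1653, 1758, 1617 and 1705 in RD controls and 1762, 1304, 1370, 2146 and 1836 in RD knockouts, differed by 0.77 ± 0.38 (adjusted p = 0.836). The RD groups of EGLN1, BNIP3 and P4HA1 overlapped. ANKRD37 had 297, 443, 461, 540 and 450 in RD controls and 405, 336, 359, 301 and 148 in RD knockouts. ANKRD37 in SJRH30 had 331, 239, 120, 274 and 277 in controls and 351, 300, 237, 261 and 274 in knockouts, so both lines overlapped. ANKRD37 (0.81 ± 0.45, adjusted p = 0.865) and SLC2A3 (1.04 ± 0.64, adjusted p = 0.886) followed. Without the shallow libraries the median over the 39 turned from 0.50 to -0.14, again with 0 calls (0.197% of all genes).

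Some of the widest spread lay within groups. In RD, PFKM had 12722, 863, 637, 7786 and 2496 in controls and 1250, 10023, 1033, 545 and 360 in knockouts. ALDOA, the muscle aldolase, had 51752, 8101, 5814, 33845 and 16174 in RD controls and 4470, 39374, 5800, 4633 and 5527 in RD knockouts. RD control 1, RD control 4 and RD knockout 2 were far above the others for both genes, and also for ALDOC, which shares exon bases with an opposite-strand gene at 62.4% of its value, at 578, 416 and 352 against 49 to 168. The same 3 libraries had the highest sums of 9 muscle contractile genes such as MYH3 and ACTA1 in RD, 211805, 111098 and 163669, against 3406 to 30114 in the other 7. Erythroid markers, 6 genes such as HBA1, also had their highest RD sums in these 3 libraries. They summed to 25509, 13484 and 13110 there, against 624 to 7706 in the other 7. The part of muscle or erythroid marker RNA in these values was not tested. PFKL, the liver form, was not raised there, with 1071, 1196 and 1145 among RD values of 755 to 1914. PFKM shares exon bases with SENP1, and the ratio of the pair ranged from 0.451 to 21.4.

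**Figure D5:**
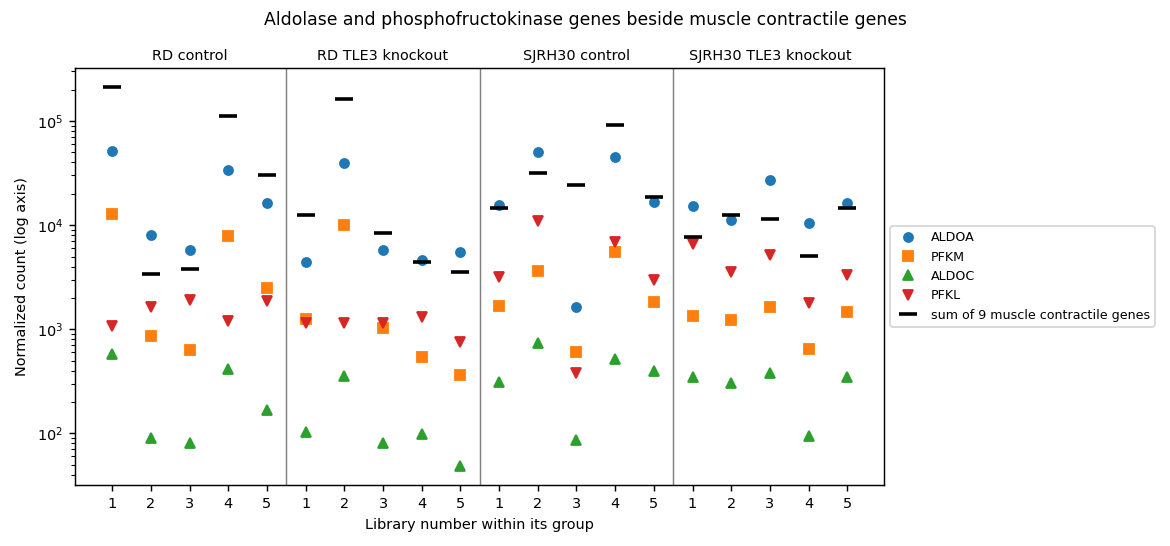
Normalized counts, on a log axis, of ALDOA, PFKM, ALDOC and PFKL in 20 libraries beside the sum of 9 muscle contractile genes (black dashes). In RD the 3 libraries with the highest sums are also the highest for ALDOA, PFKM and ALDOC, but not for PFKL.

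The share of the library taken by glycolytic enzymes varied widely between SJRH30 libraries. The 17 enzymes took 0.819% to 1.30% of the library sum in 4 SJRH30 controls, 0.355% in control 3, 0.607% to 1.18% in 4 knockouts and 0.288% in knockout 4, against 0.150% to 0.625% in RD. Among the controls, 2 and 4 were highest for ENO1, GAPDH and PKM, and their HIF1A values of 694 and 868 were the lowest of all 20 libraries. Their LDHB values of 16758 and 13139 were below the 24972 and 35411 of controls 1 and 5, so the enzymes did not all follow 1 order. Control 3 was the lowest SJRH30 library for GPI, GAPDH, ENO1, PKM and TPI1, yet its LDHA of 55679 was the highest of all 20 libraries. The mitochondrial share was 20.4% in control 3 and 16.9% in knockout 4, the highest in SJRH30, and its part in these values was not tested.

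Of 46 other genes of the pathway, 0 passed in the SJRH30 knockout comparison. Between controls 8 were higher in SJRH30 and 7 lower (32.6% called), against 18.7% of all genes, where 6.23% were higher and 12.5% lower. Between knockouts 12 were higher and 5 lower (37.0%), against 16.9% of all genes, where 8.01% were higher and 8.94% lower. Without the shallow libraries the counts were 13 and 10 between controls (40.4% of all genes called) and 16 and 8 between knockouts (26.8%). Higher between controls were STC2, a secreted glycoprotein gene (2.76 ± 0.45, adjusted p = 0.000116), FAM162A (1.86), PGM1, for phosphoglucomutase (1.62), and PDHA1, for a pyruvate dehydrogenase subunit (1.44). Lower were FBP2, the muscle fructose bisphosphatase gene that opposes glycolysis (-4.22 ± 0.58, adjusted p = 1.26e-05), PDK4 (-2.40), the HIF partner gene ARNT2 (-2.31) and ANGPTL4 (-1.82). Between knockouts AK4 (2.49), FAM162A (2.45), STC2 (2.20) and PGM1 (2.05) were among those higher, and FBP2 (-5.63), PDK4 (-2.33) and ARNT2 (-2.10) among those lower.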

How the data were processed

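RNA of 20 tumors was selected by poly(A) and made into libraries with a kit not stated to mark the strand, and 1 of 2 extraction kits was used without saying for which tumor, per the labels' protocols. FastQC, fastp 0.20.1, STAR 2.7, featureCounts, edgeR and build GRCh38.p7 are named in the submitters' processing notes. Each deposited value is a score, a gene's count after the authors' scaling between libraries, rounded to whole numbers, and not a raw count. The comparison tables hold a ratio (fold change), its log2, and a p-value and adjusted p-value, all made by the authors, per the file headers. Groups came from the sample titles.

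Of 57992 genes listed, 44294 had values. On log2(value + 1), which understates changes of low genes, limma (3.58.1, R 4.3.3) was fitted with its variance trend. Genes reaching 1 in 5 or more fitted libraries entered, and Benjamini-Hochberg adjustment ran over all of them. Knockout comparisons used the 10 libraries of a line and the others all 20. The pipeline was tested on simulated data. Levels per length used exon lengths and coordinates from GENCODE 29. Precision is limited by the 2 shallow libraries and by 5 libraries per group.

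The members, gene lists and tests were chosen with earlier results of these data known. All library values are given for 8 fixed genes and for the called members of each comparison, at most 10 by size of change, or for the 5 of smallest p where fewer than 5 were called. PECAM1, EGFL7, PFKM, ALDOA and the other genes of the paragraph on spread within groups were chosen after their values were seen. Of other pathway genes, at most 4 per direction are named, and some results on these genes are not reported here. Alternatives changed the pseudocount, filter, scaling, library weights, shallow libraries, replicate block and each library in turn.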

Additional observations from a re-analysis of the deposited data

Results flagged for a closer look

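Of 156 groups of 5 libraries (39 genes in 4 groups), 9 held a library whose gap to its neighbour was large for the range of the group by Dixon's test, and chance flags about 1 in 20 groups. In RD knockout 2, PFKM was highest at 10023 (next 1250), ALDOA at 39374 (next 5800) and ALDOC at 352 (next 104), the library whose muscle contractile sum was 163669. In RD control 1, P4HA1 was lowest at 1113 (next 1617) and PFKP at 284 (next 405). CA12 was highest in the shallow RD knockout 5, at 89 (next 40). In SJRH30 knockout 4, BNIP3 was lowest at 2277 (next 3180) and ALDOC at 94 (next 303), with a mitochondrial share of 16.9%. DDIT4 was highest in SJRH30 knockout 3, at 3644 (next 1524).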

How the results depend on the processing

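The counts of members called stayed at 0 in both knockout comparisons and in their difference under every alternative run. Between controls, 15 of 39 were called with all libraries, 31 with limma array weights, 28 without the shallow libraries and 10 to 27 when 1 library was left out, the highest without SJRH30 control 3. Between knockouts, 24 were called, and 19 to 26 when 1 library was left out. Same-numbered libraries did not deviate together (correlations of -0.561 to -0.292 in RD and -0.383 to 0.282 in SJRH30), so the numbers were not taken as pairs. With the replicate number as a block the counts were 11 between controls and 21 between knockouts, a choice made after seeing the data because a block within line leaves no estimate, and 0 in the knockout comparisons and their difference (block within line). No called gene changed direction in any setting. The median over the 39 in the SJRH30 knockout comparison turned from 0.21 to -0.10 with array weights and to -0.42 without control 3, and in RD it stayed between -0.36 and -0.22 in the settings other than leaving out a library. Rescaling moved the median of all genes between controls from -0.45 to -0.03 at most (quantile normalization). At 1 read for 10.895 normalized counts, values such as the 11 of SLC2A3 in SJRH30 control 3 rest on a single read.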
